A study of Homo sapiens with 105 samples.

Results

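The expression of 8 cytokine and tumour necrosis factor (TNF) family genes was followed in Caco-2 cells, a human epithelial line from a colon adenocarcinoma, after contact with bacterial extracellular vesicles or with the RNA these vesicles carry. The 8 genes were chosen by name from 63241 genes in the count table, with earlier results of these data known. They were the cytokines IL32, LTB, IL1A, IL1B and IL18 and the receptors TNFRSF9, TNFRSF1A and LTBR, and all 8 were found. The table held 28 groups, 7 of 3 libraries and 21 of 4 libraries.

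Cells were incubated for 10 or 24 h with membrane vesicles of Lacticaseibacillus casei (LcMVs, 1.5e+11 vesicles) or Enterococcus faecalis (EfMVs, 7.5e+09 vesicles), or with outer membrane vesicles of the Gram-negative Proteus mirabilis (PmOMVs, 6e+09 vesicles), and LcMVs were also followed to 48 h. The controls of these groups were cells given PBS (10, 24 and 48 h), and a further group received P. mirabilis LPS at 0.2 ng per µl (10 and 24 h). RNA taken from the vesicles was transfected with a lipid reagent at 100 ng (L. casei, 10, 24 and 48 h), 5 ng (E. faecalis, 10 and 24 h) or 2 ng (P. mirabilis, 10 and 24 h). The controls of the transfections were matched amounts of AllStars Negative Control siRNA (ANC), and LPS was also lipofected at 1 ng per µl (10 and 24 h). The labels give both LPS amounts per µl, whereas the methods of the study give them per ml. All groups were the same line. The labels do not say whether replicates were separate cultures, so that p-values measure only the spread between these samples, which may be technical.

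Levels are given as CPM, counts scaled to a library total of 1e+06 after TMM normalisation of the totals, and the totals ran from 632659 to 8558755 counts with a median of 4982349. The 39 libraries on lanes 2 to 4 of 1 flow cell were set aside, which left 66. Those set aside were replicates 4 and 5, apart from 1 PBS library at 48 h. Most kept libraries were replicates 2 and 3, so lane and replicate number are largely confounded. The gene IL32 shows how the libraries set aside stood apart. In the 66 kept libraries its median level was 71.3 CPM at 10 h, 46.1 at 24 h and 25.7 at 48 h, whereas in the 39 others it was 51.7, 50.6 and 49.1 CPM. Of 10 epithelial markers, 10 had a median above 1 CPM in the kept libraries. Of 12 leukocyte markers 3 did and 2 were at 0 throughout, and their summed level was 8.36 to 29.4 CPM.

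IL-32 is a proinflammatory cytokine of epithelial and immune cells that induces other cytokines, and lymphotoxin beta (LTB) is a membrane-bound TNF family ligand whose receptor is LTBR. IL-1 alpha, IL-1 beta and IL-18 belong to the IL-1 family, in which IL-1 beta and IL-18 are made as precursors that caspase-1 cleaves. TNFRSF1A is the main TNF receptor of epithelia, TNFRSF9 (4-1BB, CD137) is an inducible costimulatory receptor best known from activated T cells, and many of these genes lie under the control of NF-kappaB, the transcription factor that Toll-like receptor and TNF receptor signals release.

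The genes lie on 6 chromosomes of build GRCh38 (GENCODE v44 annotation). IL32 is on the forward strand of chr16:3065297-3082192, LTB on the reverse strand of chr6:31580525-31582522, IL1A on the reverse strand of chr2:112773925-112784493 and IL1B on the same strand at chr2:112829751-112836816. IL18 is on the reverse strand of chr11:112143253-112164096 and TNFRSF9 on the reverse strand of chr1:7915871-7943165. The receptors TNFRSF1A (reverse strand, chr12:6328757-6342114) and LTBR (forward strand, chr12:6375045-6391571) are neighbours. The counts are summed over the exons of a gene. IL32 shares 129 exon bases, 4.02% of its exons, with RNU1-125P, annotated as a small nuclear RNA, on the same strand. LTBR shares 422 exon bases, 6.86% of its exons, with SCNN1A on the opposite strand, and no strand setting is stated for the counting.

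The 3 genes that were highest after PmOMVs, IL32, LTB and TNFRSF9, each had a match to GGGNNTTTCC, a longer form of the NF-kappaB motif, within the 250 bases before a RefSeq start site (GRCh38.p14). The search read both strands of the promoters of 7 members, since IL18 had no entry, and the motif was chosen after the promoters had been read. Since the form was chosen on these sequences, its share elsewhere is background and no test: of 35116 promoters 608 (1.73%) held it, and of 27305 genes 2.12% did in at least 1 promoter. The matches are printed in capitals with 10 bases on either side. No sequence feature other than forms of this motif was searched for. The 250 bases before the second IL32 start held 0 matches to the longer form. All 3 printed matches lie in an exon of the GENCODE annotation, upstream of the RefSeq start, and a match is a description and not a binding site.
IL32 (chr16:3065294-3065323, forward strand, 99 bases before the start): cctgtactcaGGGAGTTTCCccagccagct
LTB (chr6:31582492-31582521, reverse strand, 87 bases before the start, motif on the other strand): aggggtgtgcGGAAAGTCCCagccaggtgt
TNFRSF9 (chr1:7940894-7940923, reverse strand, 74 bases before the start): gagctgtggtGGGAATTTCCcatgagaccc
The shorter form GGGNNNNNCC was in 54.4% of all promoters.

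Among the members, 4 were well expressed and 4 were near the limit of detection. Per kilobase of exon, the median level over the 66 libraries was 20.1 CPM for LTBR, 18.2 for IL32, 16.4 for TNFRSF1A and 5.55 for IL18. It was 0.317 CPM per kilobase for LTB, 0.314 for IL1A, 0.178 for TNFRSF9 and 0.137 for IL1B. LTB had 238 counts in all 66 libraries together and IL1B 188, against 21042 for IL32 and 44723 for LTBR.

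A gene was tested when at least 3 libraries, kept or not, reached 2.01 CPM before TMM normalisation, and 7 of the 8 members were. LTB passed with 3 libraries, of which 2 were PmOMV libraries at 10 h, so that it could be tested at all only because it was high there. IL1A passed with 4 libraries, of which 3 were set aside. IL1B reached this level in 1 library and was not tested.

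The first question was which treatments moved the members away from their controls, and the PmOMVs at 10 h were the treatment with the most calls. IL32 and TNFRSF9 rose over PBS, by 1.82-fold and 7.17-fold, and LTB was 2.63-fold higher without passing the test. IL18, TNFRSF1A and LTBR did not pass. All tests used edgeR's quasi-likelihood test with the replicate number as a block and Benjamini-Hochberg adjustment over 18775 genes, at an adjusted p of 0.05. Without that block 7 calls remained, all of IL32. They were the differences of PmOMVs at 10 h from PBS (adjusted p 0.000496), LPS (0.00212), LcMVs (0.0217) and EfMVs (0.000581), and 3 of its 6 falls with time, and the other calls named below were then lost (0.0554 to 1).

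IL32 had 118, 123 and 117 CPM in the 3 PmOMV libraries at 10 h (764, 1033 and 656 counts) and 63.8 and 67.3 CPM in the 2 PBS libraries. The LPS libraries had 66.7 and 74.7 CPM, the LcMV libraries 72.2, 83.5 and 80.6 CPM and the EfMV libraries 65.0 and 66.5 CPM. The PmOMV libraries lay above each of the other 63 kept libraries, the highest of which had 85.3 CPM. The difference from PBS was 0.86 on the log2 scale (SE 0.10, adjusted p 4.08e-10), in a comparison in which 1.06% of all genes were called and 0.421% were called higher. It stayed between 0.83 and 0.90 without any 1 of the 5 libraries. The libraries set aside give another picture, with 49.0 CPM in the PmOMV library and 50.0 and 52.7 CPM in the PBS libraries, and with the 39 libraries back in the fit the difference was 0.79 with an adjusted p of 0.898.

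**Figure D1:**
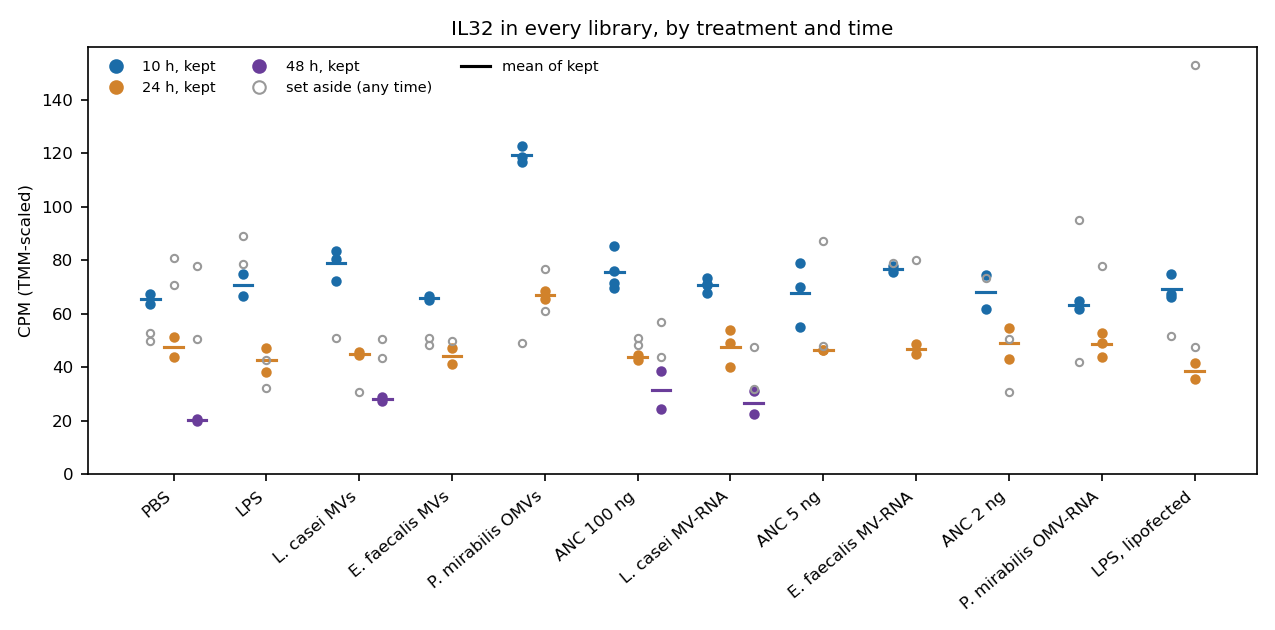
IL32 level in CPM (vertical axis) in each library of the treatments on the horizontal axis, with kept libraries as filled points coloured by time, their mean as a bar, and libraries set aside as open circles. The 3 kept PmOMV libraries at 10 h sit at 117 to 123 CPM, above the other kept libraries, while the set-aside PmOMV library at 10 h is at 49.0 CPM.

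TNFRSF9 had 12.2, 5.23 and 4.27 CPM after PmOMVs at 10 h, from 79, 44 and 24 counts. The 2 PBS libraries had 2.10 and 0.551 CPM, from 5 and 4 counts. The PmOMV libraries were above PBS without overlap, and 1 other kept library, an LcMV library with 5.05 CPM, lay within their range. The log2 difference from PBS was 2.84 (SE 0.45, adjusted p 1.08e-05), and the pooled counts of 147 against 9 gave a ratio of 7.69 with an exact 95% interval of 3.94 to 17.1 that covers counting error only. DESeq2 gave no adjusted p for TNFRSF9 in this comparison. Without PBS replicate 3 the difference was 2.41 with an adjusted p of 0.0542, and without the replicate block the adjusted p was 0.280. The set-aside PmOMV library had 1.51 CPM and the PBS libraries set aside had 0.263 and 1.05 CPM.

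LTB had 2.95, 1.78 and 3.02 CPM after PmOMVs at 10 h, from 19, 15 and 17 counts. PBS gave 1.26 and 0.689 CPM, from 3 and 5 counts. The 3 PmOMV libraries were above each of the other 63 kept libraries, of which the highest, at 1.35 CPM, was a PmOMV library at 24 h. The log2 difference from PBS was 1.39 (SE 0.54) and did not pass the adjustment (p 0.0123, adjusted p 0.248). The pooled counts of 51 against 8 gave a ratio of 3.00 (1.41 to 7.32). All these LTB values are a description only, since LTB could be tested only because it was high in these PmOMV libraries.

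The IL-1 family and both well-expressed receptors did not pass the test against PBS at 10 h. IL1A had 0.475 to 0.712 CPM in the PmOMV libraries and 0.420 and 0.138 CPM in PBS, on 12 and 2 pooled counts. IL1B had 2 counts in each PmOMV library and 0 and 3 counts in PBS. IL18 had 10.2, 11.6 and 10.9 CPM against 10.5 and 10.3 CPM, a log2 difference of 0.04 with a 95% interval of -0.45 to 0.53. TNFRSF1A had 65.4 to 71.6 CPM against 85.2 and 73.3 CPM in PBS, and LTBR had 115 to 133 CPM against 150 and 114 CPM.

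**Figure D2:**
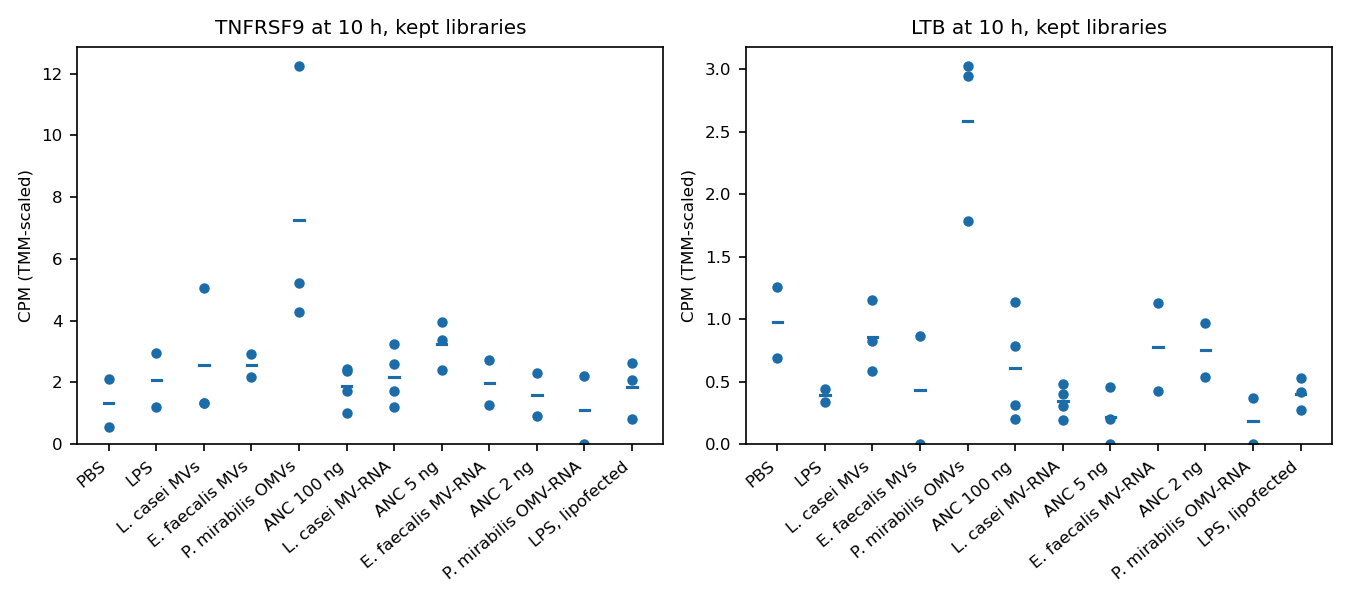
TNFRSF9 and LTB levels in CPM (vertical axes) in the kept libraries of the 10 h groups (horizontal axis), with each library as a point and the mean of a group as a bar. For LTB the 3 PmOMV libraries are above the others, and for TNFRSF9 an LcMV library with 5.05 CPM reaches into the PmOMV range of 4.27 to 12.2 CPM.

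Markers of other cells were read beside these values. The summed level of the leukocyte list was 15.2 to 17.6 CPM in the PmOMV libraries at 10 h and 15.5 to 19.2 CPM in PBS, and that of the stromal and endothelial list was 46.05 to 61.92 CPM and 48.27 to 63.39 CPM. edgeR and limma-voom called 0 of the 4 tested leukocyte markers and 0 of the 4 tested stromal and endothelial markers against PBS, with 1 and 3 at an unadjusted p under 0.05, and DESeq2 gave an adjusted p for 0 and 2 of them and called 0. Of the 10 epithelial markers edgeR and limma-voom called 0, with 3 at an unadjusted p under 0.05, and DESeq2 called CDH1 and VIL1. In the other comparisons of PmOMVs at 10 h the collagen gene COL1A1 was lower than after LPS (-0.67, SE 0.13) and EfMVs (-0.59, SE 0.14), the endothelial marker PECAM1 lower than after LcMVs (-0.98, SE 0.25) and the epithelial transcription factor HNF4A lower than after LPS (-0.31, SE 0.07). Their part in the results was not tested. In bulk RNA a change in RNA per cell and a change in the number of expressing cells cannot be told apart.

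At 24 h, IL32 was the only member called for PmOMVs against PBS, and its difference was smaller and less firm. The PmOMV libraries had 65.5 and 68.4 CPM and the PBS libraries 43.9 and 51.4 CPM, without overlap. The log2 difference was 0.50 (SE 0.11, adjusted p 0.0323), where 0.112% of all genes were called. The call was made in 6 of 12 alternatives and lost without any 1 of the 4 libraries, with adjusted p of 0.135 to 0.880. In the set-aside libraries PmOMVs gave 60.8 and 76.6 CPM against 70.6 and 80.8 CPM in PBS. TNFRSF9 overlapped its control at 24 h, with 1.08 and 0.217 CPM against 0.941 and 0.200 CPM on 5 and 7 pooled counts. LTB had 1.35 and 1.30 CPM against 0.314 and 0.600 CPM, which did not overlap, and its log2 difference of 1.58 (SE 0.76) did not pass the adjustment. Whether the effect of PmOMVs differed between 24 and 10 h was tested directly, and neither IL32 (-0.36, SE 0.15, adjusted p 0.699) nor TNFRSF9 (-2.75, SE 1.06, adjusted p 0.652) passed, where 0.032% of all genes were called.

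P. mirabilis LPS alone, in the amount given, gave 0 calls in 14 tests of a member at 10 and 24 h by edgeR, DESeq2 or limma-voom and 0 at an unadjusted p under 0.05, and 0% of all genes were called. Against PBS, IL32 differed by 0.11 (SE 0.11) at 10 h and -0.16 (SE 0.11) at 24 h. TNFRSF9 had 2.94 and 1.19 CPM after LPS at 10 h, on 27 pooled counts against 9 in PBS, a ratio of 2.28 (1.04 to 5.50), and its fitted log2 difference of 0.84 (SE 0.60) did not pass. LTB had 0.442 and 0.339 CPM, below both PBS libraries, on 5 counts.

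Set against LPS directly, PmOMVs gave higher IL32 and TNFRSF9 at 10 h. These comparisons use the same PmOMV libraries as those against PBS and are no second experiment. IL32 differed by 0.75 (SE 0.09, adjusted p 3.30e-09) and TNFRSF9 by 2.00 (SE 0.34, adjusted p 4.70e-05) on the log2 scale, and 3.18% of all genes were called. The TNFRSF9 call was lost without the replicate block (0.405). LTB had 51 against 5 counts, a ratio of 6.32 (2.54 to 20.3), and a fitted difference of 2.54 (SE 0.58). Its adjusted p of 0.00441 is given as a description only, since LTB was testable through these PmOMV libraries, and it was 0.127 without LPS replicate 2, 0.0671 without LPS replicate 3 and 0.0554 without the block. In these 3 genes the 3 PmOMV libraries lay above the 2 LPS libraries. The share of all genes that separate in this way was not counted, so this is a description only. At 24 h IL32 was higher by 0.66 (SE 0.11, adjusted p 0.00021), at 65.5 and 68.4 CPM against 38.3 and 47.3 CPM, where 0.154% of all genes were called. Without LPS replicate 2 at 24 h this was 0.56 with an adjusted p of 0.195.

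The 3 kinds of vesicles were compared with each other at the amounts used, which differed, and P. mirabilis stood apart from both others. At 10 h IL32 was higher after PmOMVs than after LcMVs by 0.60 (SE 0.08, adjusted p 1.17e-07, 0.506% of all genes called) and than after EfMVs by 0.85 (SE 0.09, adjusted p 2.05e-10, 0.852% called). TNFRSF9 was higher by 1.51 (SE 0.30, adjusted p 0.0016) and 1.71 (SE 0.35, adjusted p 0.0024). LTB had 0 and 0.867 CPM in the EfMV libraries and 0.582, 0.828 and 1.15 CPM in the LcMV libraries, all below the PmOMV libraries. Its fitted differences were 2.52 (SE 0.63, adjusted p 0.0224) from EfMVs and 1.54 (SE 0.43, adjusted p 0.0933) from LcMVs, again as a description. The TNFRSF9 calls were lost without PmOMV replicate 2, whose 12.2 CPM was the highest of all kept libraries (adjusted p 0.0943 against LcMVs and 0.0658 against EfMVs), and against EfMVs also without EfMV replicate 2 (0.344). The LTB difference from EfMVs was 1.20 without EfMV replicate 2 (adjusted p 0.599), 6.92 without EfMV replicate 3, which left the library at 0, and 2.39 without PmOMV replicate 2 (0.130).

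At 24 h IL32 was higher after PmOMVs than after LcMVs (0.58, SE 0.11, adjusted p 0.00442, 0.0692% of all genes called) and than after EfMVs (0.59, SE 0.13, adjusted p 0.0266, 0.0479% called). Both calls were lost without any 1 of their 4 libraries, with adjusted p of 0.0895 to 0.374 and 0.196 to 0.369. Between LcMVs and EfMVs 0 of 14 tests of a member passed by edgeR, DESeq2 or limma-voom, with 1 at an unadjusted p under 0.05, and 0.00533% of all genes were called at 10 h and 0.0107% at 24 h.

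Against PBS, LcMVs gave 1 call, at 48 h. At 10 and 24 h they gave 0 calls in 14 tests by the 3 tools, with 2 at an unadjusted p under 0.05, where 0.0373% and 0.00533% of all genes were called. EfMVs gave 0 calls in 14 tests by the 3 tools and 0 at an unadjusted p under 0.05, where 0% of all genes were called at either time. IL32 after LcMVs at 10 h was 0.26 higher on the log2 scale (SE 0.10, p 0.0112, adjusted p 0.532), and all 3 libraries were above both PBS libraries. TNFRSF9 had pooled counts of 41 after LcMVs and 26 after EfMVs against 9 in PBS, ratios of 2.68 (1.28 to 6.26) and 2.76 (1.26 to 6.70), with fitted differences of 1.33 (SE 0.55) and 1.13 (SE 0.59) that did not pass. The LcMV value leans on replicate 2, with 5.05 CPM against 1.33 and 1.34 CPM in the other two.

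The LcMV call was IL32 at 48 h, and it passed against PBS but not against the other control of that time. The LcMV libraries had 27.3 and 28.7 CPM and the PBS libraries 20.6 and 19.7 CPM, a log2 difference of 0.53 (SE 0.15, adjusted p 0.0269) where 2.75% of all genes were called. The lipofected control siRNA, also at 48 h, had 24.2 and 38.6 CPM and was itself 0.67 above PBS (SE 0.14, adjusted p 0.0146, 0.282% called). Against that control the LcMV difference was -0.13 (SE 0.13, adjusted p 0.909, 0.0213% called). The PBS libraries at 48 h were the lowest kept pair in IL32. They were replicates 2 and 5, whereas the LcMV and siRNA libraries of that time were replicates 2 and 3. For PBS replicate 5 the block therefore draws on libraries of the earlier times. Both calls against PBS depended on single libraries: the LcMV call was lost without LcMV replicate 2 (0.130) or 3 (0.0990) or PBS replicate 5 (0.370), and the siRNA call without siRNA replicate 3 (0.939) or PBS replicate 2 (0.0538) or 5 (0.266). With a separate block for each time the LcMV difference was 0.22 (adjusted p 0.695), and in the set-aside libraries its values of 43.5 and 50.6 CPM were not above the PBS values of 50.5 and 77.9 CPM.

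RNA from the vesicles gave 0 calls of a member in 49 tests over its 7 comparisons with ANC siRNA, by edgeR, DESeq2 or limma-voom, with 2 at an unadjusted p under 0.05, and 0% of all genes were called in each comparison. IL32 after P. mirabilis vesicle RNA had 64.9 and 61.8 CPM at 10 h against 61.9 and 74.4 CPM in ANC, a log2 difference of -0.04 with a 95% interval of -0.28 to 0.21. At 24 h it was -0.04 (-0.24 to 0.17). For L. casei RNA the IL32 differences were -0.10 (SE 0.07), 0.02 (SE 0.12) and -0.17 (SE 0.13) at 10, 24 and 48 h, and for E. faecalis RNA 0.15 (SE 0.10) and 0.00 (SE 0.11) at 10 and 24 h. TNFRSF9 after E. faecalis RNA at 10 h had 21 pooled counts against 45 in ANC, a ratio of 0.503 (0.285 to 0.862), and IL1A at 24 h had 6 against 17, a ratio of 0.309 (0.0999 to 0.823), neither of which passed the fitted test.

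The difference between the effect of PmOMVs (over PBS) and that of their RNA (over ANC) was tested as such. For IL32 at 10 h it was 0.90 on the log2 scale (SE 0.16, adjusted p 0.00042), where 0.165% of all genes were called, and it stayed at 0.83 to 1.11 without any 1 of its 9 libraries. It was called in 9 of 12 alternatives, and lost without the replicate block or with the set-aside libraries added. Among the libraries set aside at 10 h, the PmOMV library had 49.0 CPM and replicate 4 of P. mirabilis RNA 95.1 CPM. At 24 h the IL32 difference was 0.54 (SE 0.15, adjusted p 0.358, 0.0373% called). The TNFRSF9 difference at 10 h was 2.89 (SE 0.80, adjusted p 0.172) and that of LTB 2.65 (SE 1.17, adjusted p 0.617), and neither passed. Vesicles and RNA were given in different ways and amounts, so this compares the treatments as they were applied.

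**Figure D3:**
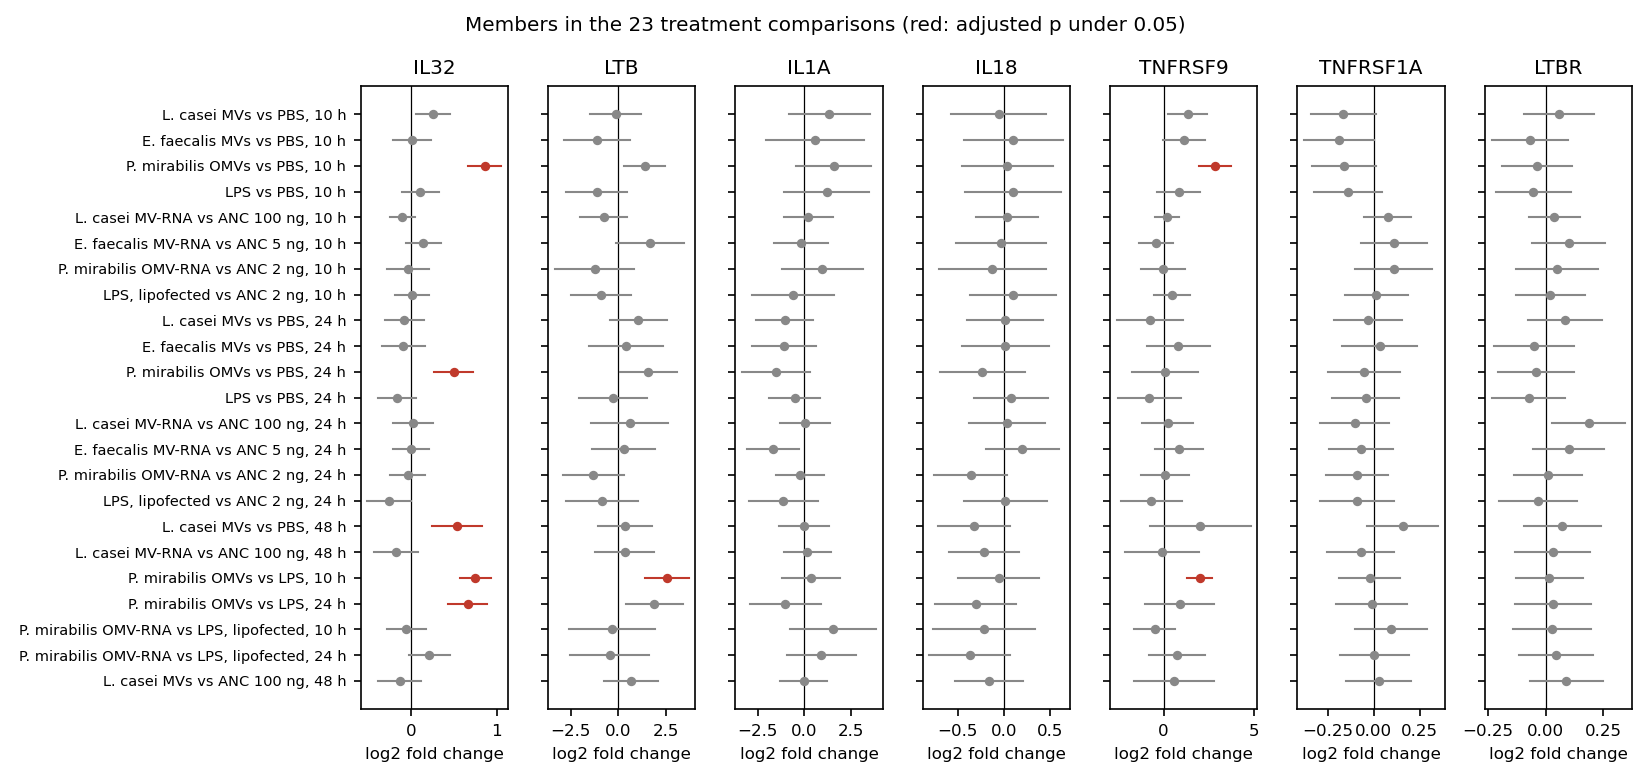
Log2 fold change (horizontal axes, which differ in range) of the 7 tested members, 1 panel each, in the 23 treatment comparisons named on the vertical axis, with 95% confidence intervals as lines and calls in red. IL32 and TNFRSF9 after PmOMVs at 10 h are at 0.86 and 2.84, and the intervals of the low members LTB, IL1A and TNFRSF9 are wide.

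Lipofected LPS gave 0 calls in 14 tests by the 3 tools, where 0% of all genes were called at either time, with 1 at an unadjusted p under 0.05 and IL32 differences from ANC of 0.02 (SE 0.10) at 10 h and -0.25 (SE 0.13) at 24 h. The lipofected siRNA was compared with PBS at each time and amount, and over its 7 comparisons the IL32 value at 48 h above was the 1 call of a member. TNFRSF9 at 10 h after 5 ng of siRNA had 45 pooled counts against 9 in PBS, a ratio of 3.87 (1.87 to 9.00), with a fitted difference of 1.21 (SE 0.58) that did not pass.

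In the controls themselves IL32 fell and IL18 rose with time. Over 6 comparisons of times, IL32 was lower at the later time in 6 and IL18 was called higher in 3. The kept PBS libraries were replicates 2 and 3 at 10 and 24 h and replicates 2 and 5 at 48 h. In the late PBS comparisons of both genes the block therefore draws on replicate 5 libraries of the earlier times. IL32 had 63.8 and 67.3 CPM in PBS at 10 h, 43.9 and 51.4 CPM at 24 h and 20.6 and 19.7 CPM at 48 h, and the 3 times did not overlap. From 10 to 24 h it fell by 0.46 on the log2 scale in PBS (SE 0.11, adjusted p 0.00454, 7.15% of all genes called), by 0.73 with 100 ng of ANC (SE 0.10, adjusted p 4.86e-08, 14.1%), by 0.57 with 5 ng (SE 0.11, adjusted p 8.01e-05, 12.5%) and by 0.47 with 2 ng (SE 0.11, adjusted p 0.00333, 6.29%). From 24 to 48 h it fell by 1.30 in PBS (SE 0.14, adjusted p 3.69e-11, 17.8%) and by 0.52 with 100 ng of ANC (SE 0.12, adjusted p 0.000773, 15.3%). With the 39 set-aside libraries added none of the 6 IL32 differences passed, the early PBS difference was 0.042, and the set-aside control libraries had medians of 52.7, 50.6 and 53.8 CPM at 10, 24 and 48 h. Single libraries took away the early PBS call (adjusted p 0.0669 without replicate 3 at 10 h, 0.191 without replicate 2 at 24 h), the 2 ng call (0.0739 without replicate 3 at 10 h, 0.134 without replicate 2 at 24 h) and the late ANC call (0.0926 without replicate 2 at 24 h, 0.372 without replicate 2 at 48 h).

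IL18 went the other way. Its kept libraries had 8.36 to 19.7 CPM at 10 h (median 11.8, n = 32), 10.5 to 29.6 CPM at 24 h (median 18.7, n = 26) and 15.7 to 40.9 CPM at 48 h (median 31.3, n = 8), so the times overlapped. In PBS it had 10.5 and 10.3 CPM at 10 h, 25.9 and 13.0 CPM at 24 h and 40.9 and 35.3 CPM at 48 h. It rose from 10 to 24 h by 0.77 in PBS (SE 0.25, adjusted p 0.0426) and by 0.65 with 100 ng of ANC (SE 0.19, adjusted p 0.0159), and from 24 to 48 h by 0.67 in PBS (SE 0.20, adjusted p 0.0150). The differences of 0.54 (SE 0.22, adjusted p 0.104) with 5 ng, 0.69 (SE 0.23, adjusted p 0.0566) with 2 ng and 0.39 (SE 0.19, adjusted p 0.178) from 24 to 48 h with 100 ng did not pass. Each IL18 call was lost without single libraries: the early PBS call without replicate 2 (0.298) or 3 (0.0598) at 10 h or replicate 2 at 24 h (0.593), the ANC call without replicate 2 at 10 h (0.102) or 2 (0.183) or 3 (0.0700) at 24 h, and the late PBS call without replicate 3 at 24 h (0.166) or 2 at 48 h (0.405). With the set-aside libraries added none of the 3 passed, and the median IL18 level of the set-aside libraries at 48 h was 13.4 CPM.

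**Figure D4:**
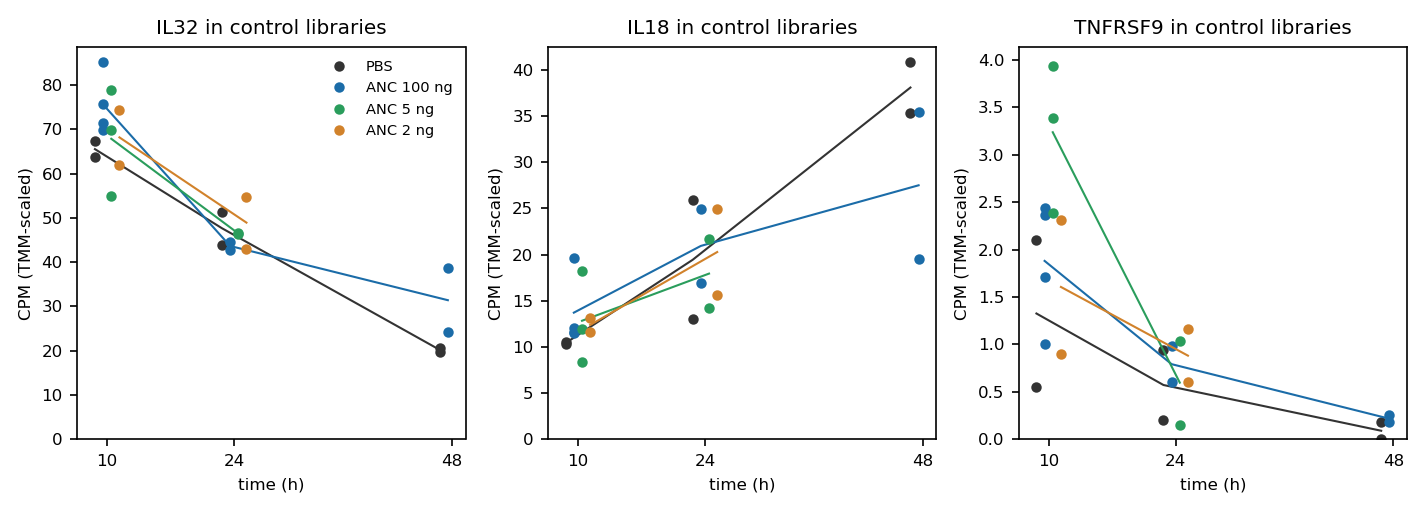
IL32, IL18 and TNFRSF9 levels in CPM (vertical axes) in the kept control libraries, PBS and 3 amounts of ANC, at 10, 24 and 48 h (horizontal axis), with each library as a point and lines through the group means. In PBS IL32 goes from 63.8 and 67.3 CPM to 20.6 and 19.7 CPM, and IL18 from 10.5 and 10.3 CPM to 40.9 and 35.3 CPM.

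TNFRSF9 was also lower at later times, with 1 call. With 5 ng of ANC it had 3.38, 2.39 and 3.94 CPM at 10 h and 1.04 and 0.153 CPM at 24 h, on 45 and 8 counts, a ratio of 0.167 (0.0679 to 0.358). The log2 difference was -2.13 (SE 0.57, adjusted p 0.00626), and without replicate 3 at 24 h it was -1.78 with an adjusted p of 0.0570. With 100 ng the pooled ratio of 0.402 (0.172 to 0.837) went with a fitted -1.33 (SE 0.55, adjusted p 0.0970). IL1A went from 2 pooled counts in PBS at 10 h to 12 at 24 h, a ratio of 5.08 (1.13 to 46.8), and did not pass. TNFRSF1A and LTBR were within -0.25 to 0.03 and -0.17 to -0.05 over the 6 comparisons.

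Between replicates 3 and 2, 62.2% of all genes were called, and 5 of the 7 tested members were, a share near that of all genes. TNFRSF9 was lower in replicate 3 by 1.05 (SE 0.17), IL18 by 0.55 (SE 0.06), LTBR by 0.22 (SE 0.02) and TNFRSF1A by 0.09 (SE 0.03), and IL32 was higher by 0.12 (SE 0.03). The spread between the 2 replicates within a group is therefore seen in TNFRSF9 and IL18 levels above. The replicate block takes out only the part of it that is the same in all groups. IL18 in PBS, with 10.5 and 10.3 CPM at 10 h and 25.9 and 13.0 CPM at 24 h, shows a part that is not.

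The low members were also read as pooled counts per group. LTB had 2 to 51 counts a group, or 0.255 to 2.49 CPM, with the highest value after PmOMVs at 10 h, and TNFRSF9 had 1 to 147 counts, or 0.0945 to 7.18 CPM, with its highest value in the same group. IL1A ran from 0.207 to 1.28 CPM and IL1B from 0.0848 to 1.33 CPM. For IL1B, 1 pair of groups among those compared, 100 ng of ANC and PBS at 48 h with 18 against 5 counts, had a ratio whose counting interval left out 1 (2.81, 1.01 to 9.68). With every gene tested IL1B gave 0 calls in 46 comparisons.

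TNFRSF1A and LTBR were the steadiest members. Over the 66 libraries TNFRSF1A ran from 53.7 to 85.2 CPM with a median of 69.1 CPM, and LTBR from 97.5 to 153 CPM with a median of 124 CPM. In the 18 comparisons of a treatment with its control the log2 differences lay between -0.19 and 0.16 for TNFRSF1A and between -0.07 and 0.19 for LTBR. edgeR called 0 of these 36, as did DESeq2 and limma-voom, and at an unadjusted p under 0.05 there were 0 for TNFRSF1A and 1 for LTBR. IL18 likewise gave 0 calls by the 3 tools in these 18 comparisons, 0 at an unadjusted p under 0.05, and differences of -0.36 to 0.20.

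When the 28 groups were ordered by level, most neighbours overlapped: 23 of 27 neighbouring pairs for IL32, 25 for LTB, 26 each for TNFRSF9, TNFRSF1A and IL1B, and 27 each for IL18, IL1A and LTBR. IL32 and TNFRSF9 followed each other over the groups (Pearson r 0.94, n = 28) and IL32 and IL18 went opposite ways (r -0.92), as a description over groups that share their times and replicate numbers. The genes most like IL32 over the groups were NAT8L (0.97), MMP1 (0.97), an interstitial collagenase, and CBX6 (0.97). Those most like LTB were C3 (0.76), the third complement component, SDC4 (0.73) and ABAT (0.68), and those most like TNFRSF9 were NDUFAB1, SETD7 and WDR74 (0.95 each). IL18 was most like CCNG1, CCDC152 and PCM1 (0.96 each).

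Other genes of the same pathways were counted from lists. Of 22 TNF receptor adaptors and NF-kappaB genes, all tested, 1 was called higher and 0 lower after PmOMVs at 10 h. In that comparison 1.06% of all genes were called and 0.421% were called higher. The median log2 difference of the 22 was 0.10, against -0.002 over all genes. The 1 called was TNFAIP3, a deubiquitinase that dampens NF-kappaB signalling (0.86, SE 0.11, adjusted p 2.51e-08). At 24 h, where 0.112% of all genes were called, 4 of the 22 were higher. They were TNFAIP3 (1.25, SE 0.12), NFKBIA, which encodes the inhibitor that retains NF-kappaB (0.92, SE 0.16), the NF-kappaB subunit RELB (1.26, SE 0.25) and BIRC3, a ubiquitin ligase of TNF receptor complexes (1.49, SE 0.33). DESeq2 called the same 4 and limma-voom 3 of them, without BIRC3. With the set-aside libraries added to the fit, edgeR called 0 genes in this comparison, so the calls of all 4 were lost. Against LPS at 24 h, in the same PmOMV libraries, these 4 were 1.27 (TNFAIP3), 0.72 (NFKBIA), 1.05 (RELB) and 1.45 (BIRC3) higher. TNFAIP3 was also higher after PmOMVs than after LcMVs (0.62 at 10 h, 1.10 at 24 h). It was likewise higher than after EfMVs (0.63 at 10 h, 1.10 at 24 h). With the set-aside libraries added, 0 genes were called for PmOMVs at 24 h against LPS, LcMVs or EfMVs. The 24 h calls against these references were therefore lost as well.

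The cytokine and receptor lists held few other calls. Of 29 TNF family receptors 18 were tested, and after PmOMVs at 10 h TNFRSF9 was the 1 called over PBS, where 1.06% of all genes were called. Against LPS, where 3.18% of all genes were called, TNFRSF19 was higher (0.54, SE 0.15, adjusted p 0.0309) and TNFRSF14, the receptor of the ligand LIGHT, lower (-1.29, SE 0.36, adjusted p 0.0237). edgeR and limma-voom called 0 of the 6 tested of 18 TNF family ligands over PBS at 10 or 24 h, with 2 and 1 at an unadjusted p under 0.05. They called 0, with 0 at an unadjusted p, of the 2 tested of 11 IL-1 family ligands and the 5 tested of 13 inflammasome genes. DESeq2 called 0 as well, but at 10 h it gave an adjusted p for 0 of the 6, 1 of the 2 and 2 of the 5. Of 16 IL-1 and IL-18 receptors and adaptors 11 were tested and edgeR called 0, with 1 at an unadjusted p at each time, while DESeq2 and limma-voom both called IL1RAP at 10 h. Of 18 other cytokines of epithelial cells 8 were tested, and 1 rose. It was the chemokine CCL20 at 24 h (3.41, SE 0.76, adjusted p 0.0241), which DESeq2 and limma-voom did not call. The CCL20 call was also lost with the set-aside libraries added, where edgeR called 0 genes over PBS at 24 h. After LcMVs at 48 h, where 2.75% of all genes were called, TNFRSF12A, the receptor of the ligand TWEAK (1.43, SE 0.27), was higher than in PBS. BIRC3 (1.62, SE 0.39) and RELB (1.15, SE 0.27) were also higher, and IL1RAP, the shared subunit of IL-1 receptors, was lower (-0.84, SE 0.17). None of these genes was called against 100 ng of ANC at 48 h, where 0.0213% of all genes were called. From 24 to 48 h in PBS itself, TNFRSF12A was lower (-1.04, SE 0.28) and IL1RAP higher (0.89, SE 0.18). BIRC3 and RELB were not called there. With the set-aside libraries added, 0 genes were called for LcMVs against PBS at 48 h. The same held from 24 to 48 h in PBS, so all these calls were then lost.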

How the data were processed

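Total RNA of Caco-2 cells was sequenced after depletion of ribosomal RNA. The labels name STAR, featureCounts and GRCh38 for the alignment and gene-level counting by the authors, and no strand setting is given. The deposited values are raw counts for 63241 genes without normalisation. Symbols were matched through a table of gene IDs for 62666 genes. The 8 members and all gene lists were chosen with earlier results of these data known. Library totals, 632659 to 8558755 counts, set the precision, and intervals on pooled counts (exact, 95%) cover counting error only.

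After 39 libraries (lanes 2 to 4 of 1 flow cell) had been set aside, 66 were fitted in 1 model of 28 groups and the replicate number as a block (R 4.3.3, edgeR 4.0.16, TMM, quasi-likelihood test), after edgeR's filter on low counts over kept and set-aside libraries together (18775 genes). The block was kept because same-numbered libraries deviated together: over 39 comparisons with shared numbers, the correlations of deviations ran from 0.247 to 0.691, and both comparisons with 3 or more pairs were above 0.1 in every pair. p-values were adjusted by Benjamini-Hochberg within each of 46 comparisons. On simulated counts for PmOMVs against PBS at 10 h, with 18775 genes, 94 of 97 changes of 1 on the log2 scale and 103 of 103 of 2 were recovered. The changed genes were drawn from genes at higher levels than LTB, IL1A, IL1B and TNFRSF9. All genes had the same small spread, without a replicate effect. The recovery therefore does not speak for the low members or for the spread of the real libraries. Alternatives used DESeq2 1.42.0 and limma 3.58.1. No 2 libraries were identical. Named genes were the members, the called genes of each list in treatment comparisons, and the 3 genes most correlated with each member over the groups (mean of at least 1 CPM). Promoters are from RefSeq.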

Additional observations from a re-analysis of the deposited data

Results flagged for a closer look

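The effect of PmOMVs on IL32 at 10 h exceeded that of their RNA by 0.897 on the log2 scale, with an adjusted p of 0.00042 by edgeR's quasi-likelihood test of the difference itself. This was called in 9 of 12 alternatives, and lost without the replicate block or with the set-aside libraries added.

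In the 4 libraries with 100 ng of ANC at 10 h, 1 IL18 value and 1 IL1A value lay far from the other 3. The gap took 0.935 of the range for IL18 (19.7 CPM in replicate 5 against 11.5 to 12.0 CPM) and 0.842 for IL1A (1.01 CPM in replicate 3, on 5 counts). The rule was applied 16 times, to 8 members in each of the 2 kept groups of 4 libraries. Chance alone flags about 1 in 20, and the members of a group share their libraries.

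Some of the 39 libraries set aside stood above each of the 38 control libraries of the series. Lipofected LPS at 24 h, replicate 4, had 153 CPM of IL32 on 906 counts (highest control 87.3 CPM), 11.2 CPM of TNFRSF9 on 66 counts (4.76 CPM) and 3.55 CPM of LTB on 21 counts (1.33 CPM), while the kept libraries of that group had 0.489 and 0 CPM of LTB. These are the same 3 genes that were highest after PmOMVs at 10 h, and the value rests on 1 library. IL32 was also above the controls in replicate 4 of P. mirabilis vesicle RNA at 10 h (95.1 CPM) and replicate 5 of LPS at 10 h (89.1 CPM). IL1A reached 2.56 CPM on 7 counts in replicate 5 of LcMVs at 24 h (2.39 CPM), and IL1B 2.88 CPM on 9 counts in replicate 5 of L. casei RNA at 48 h (1.60 CPM). The set-aside PmOMV library at 10 h had 1.51 CPM of TNFRSF9, above the set-aside PBS libraries (0.263 and 1.05 CPM).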

How the results depend on the processing

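The members gave 4 calls of treatments against controls, 4 against other references, 10 between times, 1 of siRNA against PBS, 7 between vesicles and 1 of a difference of effects. LTB holds 1 of those against other references and 1 of those between vesicles. Both are a description only, since LTB was testable through the PmOMV libraries at 10 h. Without the replicate block the totals were 1, 1, 3, 0, 2 and 0, so most calls rest on the pairing. With the 39 set-aside libraries added they were 0 in each, with or without the block, and between replicates 4 members were called in place of 5. With replicates 2 and 3 alone the treatments gave 2 and siRNA 0. With a separate block for each time, siRNA gave 0 and the differences 2. DESeq2 gave 2 against other references and 4 between vesicles, with 0 calls of TNFRSF9 or LTB, to which it gave no adjusted p in the comparisons of PmOMVs at 10 h. Leaving out each library in turn gave 3 to 4, 3 to 4, 8 to 11, 0 to 1, 4 to 7 and 1 to 1. No value for replicate 3 against 2 could be had without the block, with a block per time or with a library left out. With the set-aside libraries added IL32 turned direction in LcMVs against PBS at 48 h (-0.106 with the block, -0.147 without), PBS at 24 against 10 h (0.042 and 0.069) and 100 ng of ANC against PBS at 48 h (-0.022 and -0.044). IL32 after PmOMVs at 10 h was called in 10 of 12 alternatives. LTB, IL1A and IL1B are limited by depth. The cause of these shifts was not tested.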
